A study of Mus musculus with 12 samples.

Results

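Integrins, laminins and the basement membrane proteins that bind them were examined at the transcript level in mouse embryonic palatal mesenchyme cells. The genes were chosen by symbol, as the integrin alpha and beta subunits, the laminin alpha, beta and gamma chains, the nidogens Nid1 and Nid2, perlecan (Hspg2), agrin (Agrn) and dystroglycan (Dag1). This gave 42 genes of the 51490 in the table, of which 18 encode integrin alpha subunits, 8 integrin beta subunits, 11 laminin chains and 5 basement membrane partners. RNA was sequenced from immortalized mouse embryonic palatal mesenchyme (iMEPM) cells, which derive from a male Cdkn2a-/- embryo, so that all groups lack Cdkn2a. The cells stably carried either a lentiviral scramble shRNA (scramble) or an shRNA against Srsf3 (shSrsf3), a splicing factor of the serine/arginine-rich family, and were sorted for GFP and selected with puromycin. Each shRNA was represented by 1 cell line, so that the knockdown and the history of the line cannot be told apart. Cells of both lines received either no ligand (-PDGF-AA) or PDGF-AA at 10 ng/mL over 1 hr (+PDGF-AA), and each of the 4 groups has 3 biological replicates. In the study's methods, stimulation with PDGF-AA followed serum starvation of the cells, a step that its RNA sequencing section does not repeat.

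A basement membrane is a thin sheet of extracellular matrix, and its first layer is a polymer of laminins, each a trimer of an alpha, a beta and a gamma chain. Nidogens bridge this polymer to a network of collagen IV, while perlecan and agrin are heparan sulfate proteoglycans of the basement membrane. Cells hold on to laminin through dystroglycan and through integrins, transmembrane heterodimers of an alpha and a beta subunit. Other integrins bind collagens, fibronectin and proteins with an RGD motif. Mesenchymal cells produce many of these proteins, and in the embryo they meet basement membrane where they underlie epithelium and surround vessels and nerves.

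The genomic setting is shown for genes that were DE with ligand, that is, at least 2-fold apart between the lines and past the test below. The 200 bases upstream of the annotated start were read from GRCm39 for Itga8, Itga7, Itgb7 and Lama1. Each is given 5′ to 3′ on the strand of its gene. The sequence before Lama3 is not reported here. Capitals mark matches, on either strand, to the GC box GGGCGG, the TATA box TATAAA and the TEAD motif CATTCC.

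Itga8 (chr2:12307215-12307414, minus strand): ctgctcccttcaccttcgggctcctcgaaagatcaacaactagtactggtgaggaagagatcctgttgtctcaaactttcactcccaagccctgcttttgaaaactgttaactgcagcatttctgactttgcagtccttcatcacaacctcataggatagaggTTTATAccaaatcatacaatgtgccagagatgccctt
Itga7 (chr10:128769421-128769620, plus strand): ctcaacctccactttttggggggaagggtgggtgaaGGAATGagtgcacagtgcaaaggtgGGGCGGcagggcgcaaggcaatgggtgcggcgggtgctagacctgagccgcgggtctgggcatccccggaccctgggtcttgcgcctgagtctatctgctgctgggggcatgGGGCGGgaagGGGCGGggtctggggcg
Itgb7 (chr15:102140380-102140579, minus strand): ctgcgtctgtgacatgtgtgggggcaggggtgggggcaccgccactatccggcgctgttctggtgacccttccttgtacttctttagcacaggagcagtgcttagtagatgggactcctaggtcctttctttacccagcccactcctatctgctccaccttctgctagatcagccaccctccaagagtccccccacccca
Lama1 (chr17:68004023-68004222, plus strand): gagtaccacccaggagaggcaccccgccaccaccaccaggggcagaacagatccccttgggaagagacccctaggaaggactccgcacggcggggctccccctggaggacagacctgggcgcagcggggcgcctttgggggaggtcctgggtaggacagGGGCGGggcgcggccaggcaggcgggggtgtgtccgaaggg

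The stretches before Itga7 and Lama1 are rich in G and C, at 67.5% and 72.0%, and hold 3 and 1 GC boxes. The stretch before Itga8 is the poorest of the 4, at 45% G and C, and holds the 1 TATA box match in this set. It also overlaps E030013I19Rik, an annotated gene on the other strand. The Itgb7 stretch, at 58.5%, holds none of the motifs searched. Across the 36 tested genes of the family, 19 had a GC box in this window, against 34.8% of 21770 promoters of protein-coding genes, and the median GC content was 60.2% for the 36 genes against 54.5% for all. In the same windows 2 genes, Itga8 and Itgav, had a TATA box match, against 9.6% of promoters with a match on either strand. In both genes TATAAA lies on the strand opposite to the gene. A CCAAT box was found in 6 of the 36 (32.3% of promoters), a TEAD motif in 5 (9.5%), the AP-1 motif TGANTCA in 1, Itgb4 (4.9%), and a CArG box in 1, Lama2 (1.1%). Such matches describe the letters of the window and not binding.

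The deposited values are expected counts, estimated numbers of read pairs per gene, with totals between 30958870 and 76123207 per sample. Scramble samples with ligand had 57313006 to 65707808 and shSrsf3 samples with ligand 30958870 to 37334636, so that depth did not overlap in that comparison. Levels are given as counts scaled to a common library size (CPM). Srsf3 itself had 199 to 212 CPM in scramble and 161 to 164 CPM in shSrsf3 samples without ligand, and fell by 0.34 on the log2 scale (SE 0.038, adjusted p = 7.95e-06). With ligand it had 215 to 231 and 161 to 170 CPM and fell by 0.43 (SE 0.038, adjusted p = 9.54e-07). Of 8 mesenchyme markers, all had counts, with a summed level of 34911 to 36662 CPM in scramble samples and 31172 to 33449 CPM in shSrsf3 samples. Most of this sum was Col1a1 and Col1a2, and the other markers went both ways. Without ligand, scramble and shSrsf3 means were 4327 and 5160 CPM for Vim, and 64.0 and 65.4 CPM for Twist1. They were 515 and 432 CPM for Prrx1, and 73.9 and 51.3 CPM for Pdgfra. Msx1 had 1.70 and 0.897 CPM, and Osr2 had 5.23 and 2.95 CPM. Summed markers of leukocytes were at 1.23 to 2.34 CPM, with Adgre1 and Cd3e at 0 in every sample. Muscle markers summed to 0.104 to 0.248 CPM in scramble and 0.228 to 0.579 CPM in shSrsf3 samples, with Myod1 at 0. Epithelial markers summed to 2.18 to 3.33 CPM in scramble and 0.591 to 1.09 CPM in shSrsf3 samples. Endothelial markers summed to 30.5 to 34.6 and 19.1 to 22.6 CPM, most of it Tek, while the means of Cdh5 (0.274 and 1.37 CPM) and Kdr (0.251 and 0.623 CPM) were higher in shSrsf3 cells without ligand. Sox10, a marker of glia and neural crest, was at 0. In bulk RNA, fewer cells of a type and less RNA per cell cannot be told apart.

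The family spanned a wide range of levels. Of the 42 genes, 36 passed the filter on low counts and were tested, and 15 of these had a mean of at least 100 CPM while 3 had a mean under 1 CPM. The 6 genes under the filter were Itgad, Itgae, Itgal, Itgam, Itgax and Itgb6, with at most 8 counts in any sample. Apart from Itgb6, a beta subunit of epithelia, these are alpha subunits of leukocyte integrins. Compared per kilobase of annotated exon, so that genes of different length can be set side by side, the highest mean level without ligand was that of Itgb1, the common beta subunit, at 238 CPM per kb in scramble and 230 CPM per kb in shSrsf3 cells. Nid1 followed at 131 and 210 CPM per kb, and Itga5, the fibronectin receptor subunit, at 69.7 and 94.3 CPM per kb. This order depends on the length used. Itga5 and Itgb5 have 5322 and 7060 bases of annotated exon, but longest transcripts of 4415 and 4727 bases. With the latter, Itgb5 would lie above Itga5 in scramble cells. Hspg2, Itgb5, Lamb2, Dag1, Lamb1 and Lamc1 lay between 38.6 and 62.5 CPM per kb in scramble and between 44.7 and 65.6 CPM per kb in shSrsf3 cells. Itga11 was among these in scramble cells, at 54.1 CPM per kb, and under them in shSrsf3 cells, at 30.5 CPM per kb. Itga8 lay under the laminin chain Lama4 in scramble cells, at 6.12 against 11.3 CPM per kb, and above it in shSrsf3 cells, at 20.2 against 11 CPM per kb. Nid2 had 33.5 and 29.3, Itgav, the alpha subunit of RGD-binding integrins, 19.4 and 21.8, and Agrn 5.22 and 4.41 CPM per kb. Lama5 had 5.98 and 10.8 CPM per kb and Lama2 5.28 and 7.90 CPM per kb. The cells thus held transcripts for receptors of fibronectin, collagen and laminin and for all 3 kinds of laminin chain.

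To examine the effect of Srsf3 knockdown on these genes, scramble and shSrsf3 samples were compared within each ligand condition. A gene was past the test when its adjusted p was at most 0.05, and DE when the change was also at least 2-fold. Without ligand, 25 of these 36 genes were past the test, 16 higher and 9 lower in shSrsf3 cells, where 22.2% of all 15037 tested genes were higher and 23.7% lower. With ligand, 26 were past the test, 15 higher and 11 lower, against 20.3% and 20.7% of all tested genes. In each comparison 5 of the 36 were DE, against a background of 5.75% without and 5.42% with ligand. These counts include Lama3, which passed the filter through the shSrsf3 samples, where it is high, so that its call is no result. The median log2 fold change of the 36 genes was 0.19 without and 0.18 with ligand, beside -0.02 and -0.01 over all tested genes. Both comparisons found 24 of the genes, Lama3 among them, and the sign was the same for all 24, 15 higher and 9 lower. The share of all tested genes past the test in both comparisons was not counted. The count of 24 is therefore a description and no result about the family. These comparisons do not share samples, but they share the cell lines and the estimate of the spread.

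**Figure D1:**
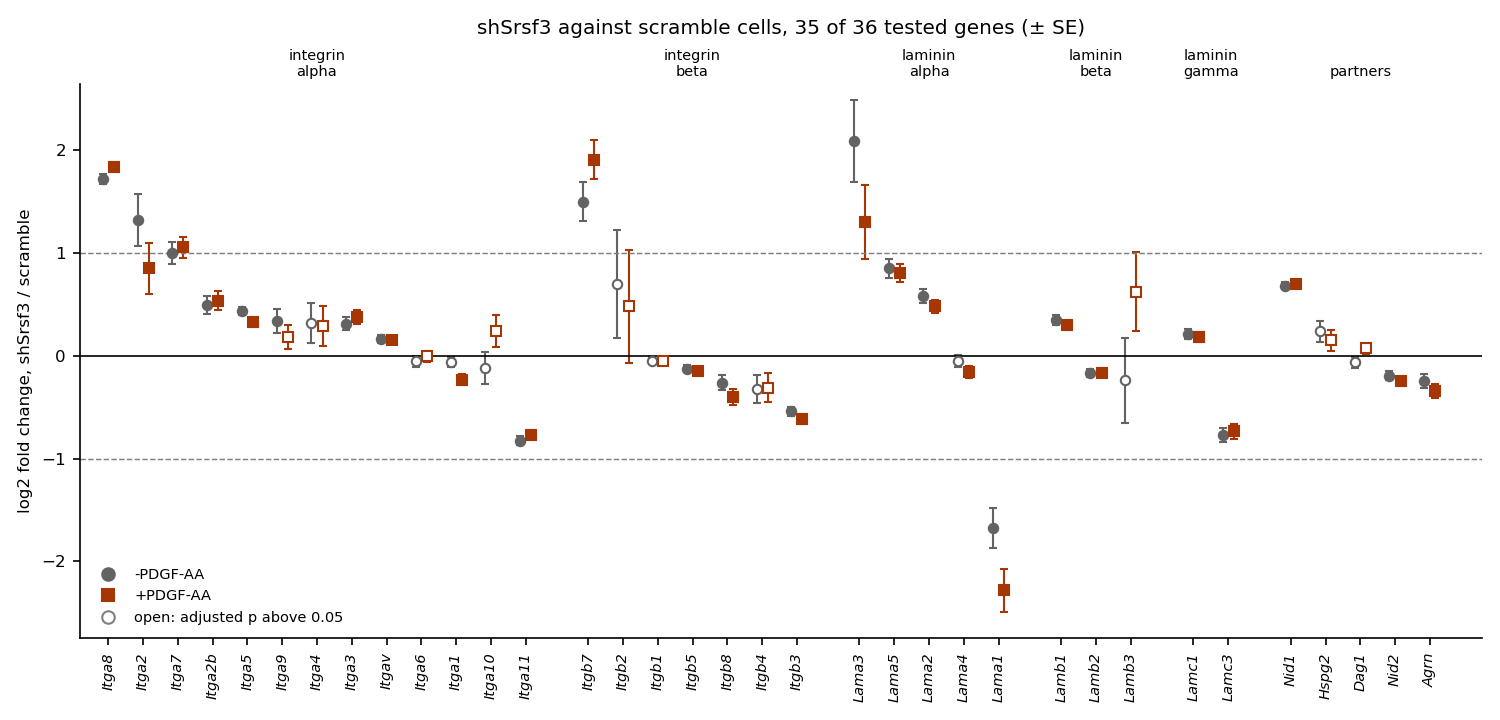
Log2 fold change between shSrsf3 and scramble samples (vertical axis, bars are SE) for 35 of the 36 tested genes, grouped by class, without ligand (grey circles) and with ligand (brown squares). Filled symbols have an adjusted p of 0.05 or less and dashed lines mark 2-fold. Itga8 and Itgb7 lie above the upper line and Lama1 below the lower line in both conditions, while Itgb1 and Dag1 lie near 0. Lama3 is drawn, but it passed the filter through the shSrsf3 samples.

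Among the 13 tested integrin alpha subunits, 9 were past the test without ligand, 8 of them higher, and 9 with ligand, 7 of them higher. Itga8, which pairs with Itgb1 and binds nephronectin and other RGD proteins, was the one with the greatest increase. Its level was 62.8, 65.2 and 70.0 CPM in the scramble samples without ligand and 224, 207 and 224 CPM in the shSrsf3 samples. With ligand, the values were 67.1, 63.8 and 69.6 CPM in scramble and 242, 240 and 236 CPM in shSrsf3 cells. The groups did not overlap, and the replicates of each group lay close together. Itga8 was 3.31-fold higher without ligand (log2 fold change 1.72, SE 0.049, adjusted p = 2.66e-11) and 3.58-fold higher with ligand (1.84, SE 0.049, adjusted p = 1.58e-11). The gene overlaps E030013I19Rik on the opposite strand and Gm37701 on its own strand.

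Itga7, a laminin receptor subunit best known from muscle, was at a lower level. It had 3.79, 2.97 and 4.14 CPM in scramble cells without ligand against 7.12, 6.97 and 7.92 CPM in shSrsf3 cells. With ligand it had 4.19, 3.95 and 3.91 against 7.83, 8.55 and 8.69 CPM. All shSrsf3 samples were above all scramble samples. The log2 fold change was 1.00 (SE 0.106, adjusted p = 5.23e-06) without ligand, just under the 2-fold minimum, and 1.06 (SE 0.106, adjusted p = 3.07e-06) with ligand, just above it. The summed muscle markers were also higher in the shSrsf3 samples, at 0.104 to 0.207 against 0.228 to 0.414 CPM without ligand and 0.116 to 0.248 against 0.347 to 0.579 CPM with ligand. Nearly all of this was Des, with Myod1 at 0, and its part in the result was not tested. Itga7 overlaps Gm25494 on its own strand and Tmt1b, Gm67752 and Gm67756 on the other.

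Itga2, a collagen receptor subunit, was among the genes of low level. Its values without ligand were 0.338, 0.874 and 0.746 CPM in scramble and 1.70, 1.49 and 1.83 CPM in shSrsf3 cells. With ligand they were 0.814, 0.868 and 0.850 CPM and 1.31, 1.70 and 1.58 CPM. The groups did not overlap, although the first scramble replicate without ligand lay well under the other scramble samples. The log2 fold change was 1.32 (SE 0.251, adjusted p = 0.000764) without and 0.85 (SE 0.249, adjusted p = 0.0139) with ligand. Without shSrsf3 replicate 2, the latter became 0.77 with an adjusted p of 0.0548.

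Itga11, the collagen I receptor subunit of fibroblasts, was the alpha subunit that fell most. It had 335, 333 and 333 CPM in scramble and 194, 178 and 192 CPM in shSrsf3 samples without ligand. With ligand it had 324, 326 and 319 against 195, 195 and 179 CPM. Itga11 fell by 0.83 (SE 0.042, adjusted p = 4.28e-09) and 0.77 (SE 0.042, adjusted p = 1.02e-08) on the log2 scale, so that it was 1.77-fold and 1.70-fold lower. Of the collagen-binding alpha subunits, Itga2 thus rose and Itga11 fell, while Itga1 had log2 fold changes of -0.06 (adjusted p = 0.378) and -0.23 (adjusted p = 0.00301), and Itga10 had -0.12 (adjusted p = 0.559) and 0.24 (adjusted p = 0.253). Other genes hold 31.8% of the 31-base sequences of Itga10, so its counts are uncertain.

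The remaining alpha subunits moved by less. Itga5, the most abundant, rose without ligand from 371 ± 14.2 to 502 ± 27.0 CPM (SD, n = 3), by 0.44 on the log2 scale (adjusted p = 2.47e-06), and with ligand from 384 ± 9.33 to 482 ± 10.4 CPM, by 0.33 (adjusted p = 3.79e-05). Itgav rose by 0.17 and 0.15 on the log2 scale (adjusted p = 0.00301 and 0.00550). Itga3, a laminin receptor subunit, rose by 0.31 and 0.38 (adjusted p = 0.00184 and 0.000543), and Itga2b, known from platelets, by 0.50 and 0.54 at 4.59 to 6.79 mean CPM (adjusted p = 0.000483 and 0.000343). Itga9, which binds tenascin-C, was higher without ligand (0.34, adjusted p = 0.0273) and had a log2 fold change of 0.18 with ligand (adjusted p = 0.246). Itga6, the other major laminin receptor subunit, had mean levels between 33.3 and 37.2 CPM in the 4 groups, with log2 fold changes of -0.05 (adjusted p = 0.455) and 0.00 (adjusted p = 0.973). Itga4 had 0.982 to 1.36 mean CPM and was past the test in neither condition (adjusted p = 0.204 and 0.265).

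**Figure D2:**
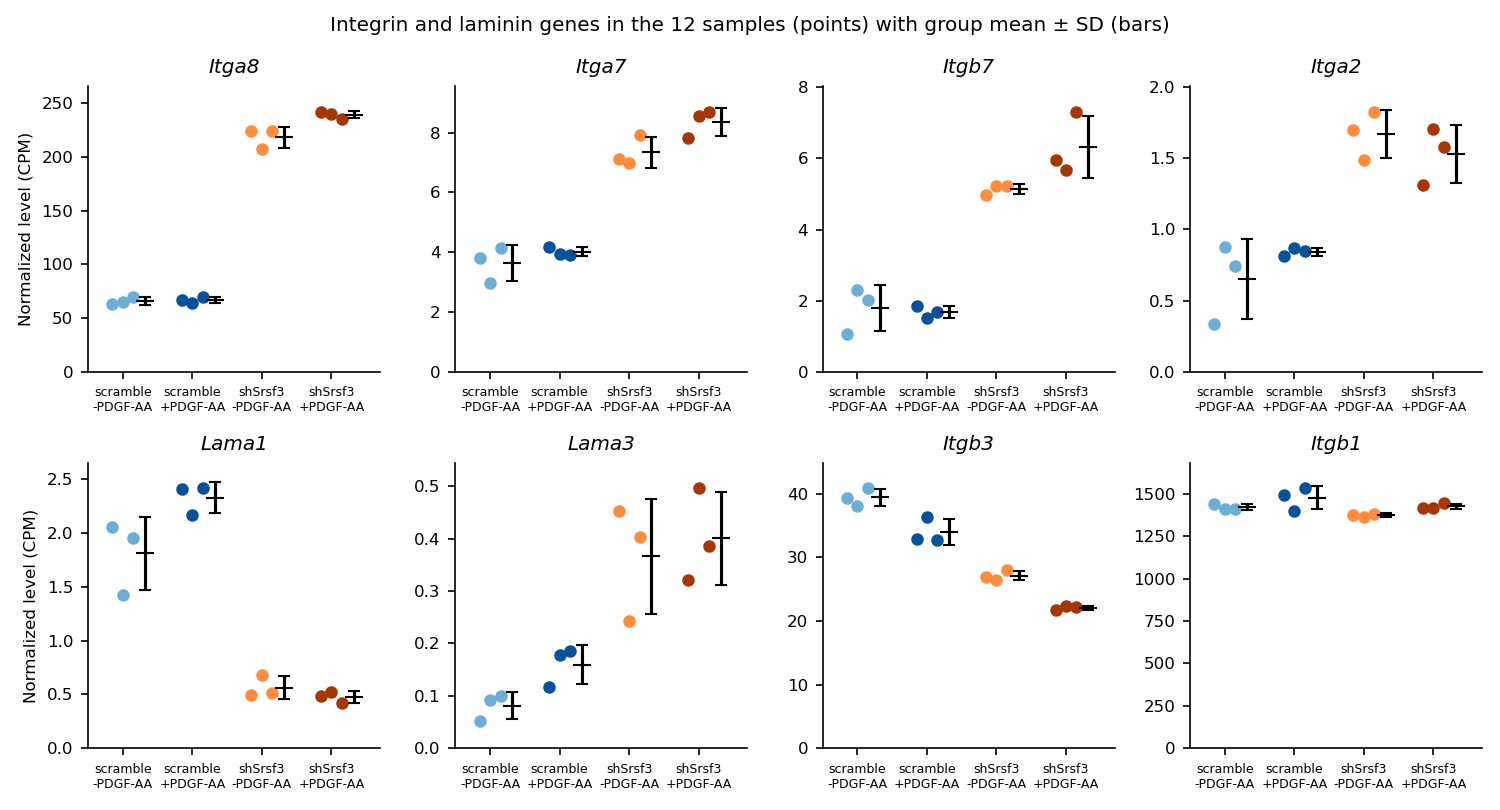
Normalized level (vertical axis, CPM, starting at 0) of 8 genes in the 12 samples, in panels by gene; each point is 1 sample and each bar the group mean ± SD (n = 3). The shSrsf3 samples of Itga8 lie between 207 and 242 CPM and the scramble samples between 62.8 and 70.0 CPM, whereas Itgb1 lies between 1359.8 and 1530.5 CPM in all groups.

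Of 7 tested integrin beta subunits, 1 rose and 3 fell without ligand, and the same genes did so with ligand. Of all tested genes, 22.2% were higher and 23.7% lower without ligand, and 20.3% and 20.7% with ligand. Itgb1, which pairs with most of the alpha subunits above, had 1439, 1407 and 1413 CPM in scramble and 1377, 1359.8 and 1382 CPM in shSrsf3 samples without ligand. With ligand it had 1495, 1399 and 1530.5 CPM against 1418, 1417 and 1442 CPM. The shSrsf3 samples were slightly under the scramble samples without ligand and within their range with ligand, and the log2 fold change was -0.05 in both (SE 0.033, adjusted p = 0.245 and 0.260). With ligand, Itgb1 was past the test without scramble replicate 2 (-0.09, adjusted p = 0.0349) and without the 3 libraries with the lowest mapping rates in the study's methods, all of them scramble (-0.09, adjusted p = 0.0173), which leaves 2 scramble samples with ligand.

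Itgb7 was the beta subunit that rose. It is known as the partner of Itga4 and Itgae on lymphocytes. Its values without ligand were 1.07, 2.30 and 2.01 CPM in scramble and 4.99, 5.22 and 5.23 CPM in shSrsf3 cells. With ligand they were 1.84, 1.51 and 1.68 CPM against 5.96, 5.67 and 7.31 CPM. The groups did not overlap, and the fold change was 2.83 (log2 1.5, SE 0.190, adjusted p = 2.59e-05) without and 3.75 (log2 1.91, SE 0.190, adjusted p = 2.99e-06) with ligand. The level of its partners was low, 0.982 to 1.36 mean CPM for Itga4 and under the filter for Itgae, and of the 5 leukocyte markers Adgre1 and Cd3e had no count in any sample, while Cd68 had 0.781 to 1.65 CPM, Csf1r 0.415 to 0.886 CPM and Ptprc at most 0.139 CPM. The part of such cells in the result was not tested.

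Itgb3 and Itgb5, both partners of Itgav in RGD-binding integrins, were lower in shSrsf3 cells. Itgb3 had 39.3, 38.1 and 40.8 CPM in scramble against 26.9, 26.5 and 28.0 CPM in shSrsf3 samples without ligand, and 32.9, 36.3 and 32.7 against 21.8, 22.4 and 22.2 CPM with ligand. No shSrsf3 sample reached a scramble sample, and Itgb3 fell by 0.54 (SE 0.046, adjusted p = 5.73e-07) and 0.62 (SE 0.048, adjusted p = 2.56e-07) on the log2 scale. Itgb5 fell by 0.13 and 0.15 (adjusted p = 0.00780 and 0.00309), and other genes hold 22.4% of its 31-base sequences. Itgb8, a further partner of Itgav that binds latent TGF-beta, fell by 0.26 and 0.40 (adjusted p = 0.00977 and 0.000955). Itgb4, the partner of Itga6 in hemidesmosomes, had 2.65 ± 0.093 and 2.10 ± 0.149 CPM without ligand (adjusted p = 0.0643) and was also not past the test with ligand (adjusted p = 0.0901). Itgb2, the leukocyte beta subunit, had 2 to 23 counts per sample and adjusted p values of 0.297 and 0.523.

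Among the 5 laminin alpha chains, Lama2 and Lama5 rose in shSrsf3 cells in both conditions, Lama1 fell in both, and Lama4 fell with ligand only. Lama3 is described last and left out of this tally, since its call is no result. Lama4 had 178 ± 9.62 CPM in scramble and 172 ± 1.88 CPM in shSrsf3 cells without ligand (log2 fold change -0.05, adjusted p = 0.528), and 197 ± 3.36 and 177 ± 16.8 CPM with ligand (-0.15, adjusted p = 0.0494). Lama5, a chain found in most mature basement membranes, had 66.0, 61.1 and 78.2 CPM in scramble and 123, 111 and 138 CPM in shSrsf3 cells without ligand. With ligand, it had 77.1, 68.1 and 74.5 against 128, 125 and 131 CPM. It rose by 0.85 (SE 0.088, adjusted p = 4.13e-06) and 0.80 (SE 0.088, adjusted p = 7.38e-06). Lama2, the chain of muscle and peripheral nerve, rose by 0.58 and 0.48 (adjusted p = 1.10e-05 and 6.21e-05), from 94.2 ± 9.59 to 141 ± 7.58 CPM and from 108 ± 3.34 to 150 ± 8.48 CPM.

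Lama1, the laminin alpha chain of the early embryo, fell in shSrsf3 cells. It had 2.05, 1.43 and 1.96 CPM in scramble against 0.492, 0.683 and 0.510 CPM in shSrsf3 samples without ligand. With ligand, the values were 2.41, 2.16 and 2.41 against 0.481, 0.527 and 0.418 CPM. The groups did not overlap, and Lama1 was 3.20-fold lower without ligand (log2 fold change -1.68, SE 0.195, adjusted p = 1.16e-05) and 4.87-fold lower with ligand (-2.28, SE 0.211, adjusted p = 1.44e-06). This was the only one of the 36 genes that was DE and lower. Gm64510 overlaps it on the other strand.

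Lama3, which joins Lamb3 in the laminin of epithelial anchorage, had the lowest level per length of the tested genes, 0.0196 CPM per kb. Its counts in scramble samples were 2, 4 and 6 without ligand and 7, 10 and 12 with ligand, so that it passed the filter through the shSrsf3 samples, with 35, 16 and 15 and with 12, 16 and 12 counts. Scaled to library size, these were 0.0520, 0.0920 and 0.0995 against 0.453, 0.243 and 0.403 CPM without ligand and 0.116, 0.177 and 0.185 against 0.321, 0.496 and 0.386 CPM with ligand. The groups did not overlap. Since the filter selected the gene by the group where it is high, these values are a description and no test is given. Of the epithelial markers, Cdh1 had 2.36 and 0.484 mean CPM in scramble and shSrsf3 cells without ligand and 2.17 and 0.563 CPM with ligand, and the other 5 were under 1 CPM in every sample. Their part in the values of Lama3 was not tested. Lamb3 had 9 to 32 counts per sample and was not past the test (adjusted p = 0.670 and 0.224).

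Lamb1 and Lamc1, the beta and gamma chains of most laminins, rose by small amounts. Lamb1 had 439, 427 and 483 CPM in scramble and 577, 550 and 590 CPM in shSrsf3 samples without ligand, and 493, 466 and 489 against 598, 604 and 583 CPM with ligand. The samples of the lines did not overlap (log2 fold change 0.35, SE 0.045, adjusted p = 3.43e-05, and 0.30, SE 0.045, adjusted p = 0.000130). Lamc1 had 457, 416 and 437 against 492, 480 and 547 CPM without ligand and 448, 443 and 468 against 516, 518 and 504 CPM with ligand. Here too the groups were apart, by 0.21 (SE 0.049, adjusted p = 0.00280) and 0.18 (SE 0.049, adjusted p = 0.00947). Lamb2, the alternative beta chain, fell by 0.17 in both conditions (adjusted p = 0.00396 and 0.00516), and Lamc3, the alternative gamma chain, by 0.77 and 0.74 (adjusted p = 1.03e-06 and 2.31e-06), from 12.9 ± 0.355 to 7.57 ± 0.197 CPM without ligand.

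The proteins that link laminin to the rest of the membrane and to the cell were divided. Nid1 had 965, 962 and 1018 CPM in scramble and 1568, 1538 and 1626 CPM in shSrsf3 samples without ligand, and 1027, 1024 and 1090 against 1699, 1694 and 1689 CPM with ligand. It rose by 0.68 and 0.69 (SE 0.035 in both; adjusted p = 4.28e-09 and 4.15e-09), with no overlap between the lines. Nid2, the second nidogen, fell by 0.19 and 0.25 (adjusted p = 0.00223 and 0.000355). Agrn fell by 0.25 and 0.34 (adjusted p = 0.00890 and 0.00129), while Hspg2 had 886 ± 85.5 and 1046 ± 179 CPM without ligand and 966 ± 42.7 and 1074 ± 83.4 CPM with ligand (adjusted p = 0.0669 and 0.256). Dag1, which spans the membrane and binds laminin on the outside and dystrophin on the inside, had 380, 370 and 326 CPM in scramble and 340, 332 and 358 CPM in shSrsf3 samples without ligand. With ligand, it had 334, 367 and 345 against 366, 363 and 370 CPM. These ranges overlap, with log2 fold changes of -0.06 (SE 0.054, adjusted p = 0.353) and 0.07 (SE 0.054, adjusted p = 0.320). The sign without ligand turned to 0.07 (adjusted p = 0.282) when the 3 libraries of low mapping rate were left out, which leaves 1 scramble sample without ligand, replicate 3, assumed to vary like the other groups. This also gave 0.11 with ligand (adjusted p = 0.0289). Without scramble replicate 3, the comparison without ligand was past the test at -0.12 (adjusted p = 0.0371).

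To describe how the makeup of each class differed, the level per kilobase of each gene was divided by the sum over its class in each sample. In these shares Lama4 took 49.8% ± 1.89 (SD, n = 3) of the laminin alpha transcripts in scramble cells without ligand and 36.9% ± 2.06 in shSrsf3 cells. Lama5 took 26.2% ± 1.4 and 36.2% ± 2.05, and Lama2 23.2% ± 0.494 and 26.6% ± 0.103. The shares with ligand were similar, at 49.7% ± 0.741 and 36.4% ± 1.93 for Lama4 and 25.4% ± 0.843 and 36.2% ± 2.28 for Lama5. Among the beta chains, Lamb2 took 58.5% ± 0.980 in scramble and 49.7% ± 0.296 in shSrsf3 cells without ligand, and Lamb1 41.4% ± 0.963 and 50.3% ± 0.282. Lamc1 held 93.6% to 94.9% of the gamma chains in all groups, and Itgb1 77.2% to 79.8% of the integrin beta subunits. Among the integrin alpha subunits, Itga11 took 32.9% ± 0.349 in scramble and 16.6% ± 0.508 in shSrsf3 cells, Itga5 42.4% ± 1.13 and 51.2% ± 0.702, and Itga8 3.72% ± 0.255 and 11% ± 0.264. Nid1 took 79.6% ± 0.215 and 87.8% ± 0.369 of the nidogens. These shares are a description without a test and depend on the length used. With the longest transcript in place of all annotated exons, Lama5 took 15.5% and 22.8%, Lama2 25.2% and 30.7%, and Lamb2 45.8% and 37.1%, in scramble and shSrsf3 cells without ligand, so that the order of Lama5 and Lama2 turned in both lines and that of Lamb1 and Lamb2 in scramble cells, while the shifts of these genes between the lines kept their direction.

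**Figure D3:**
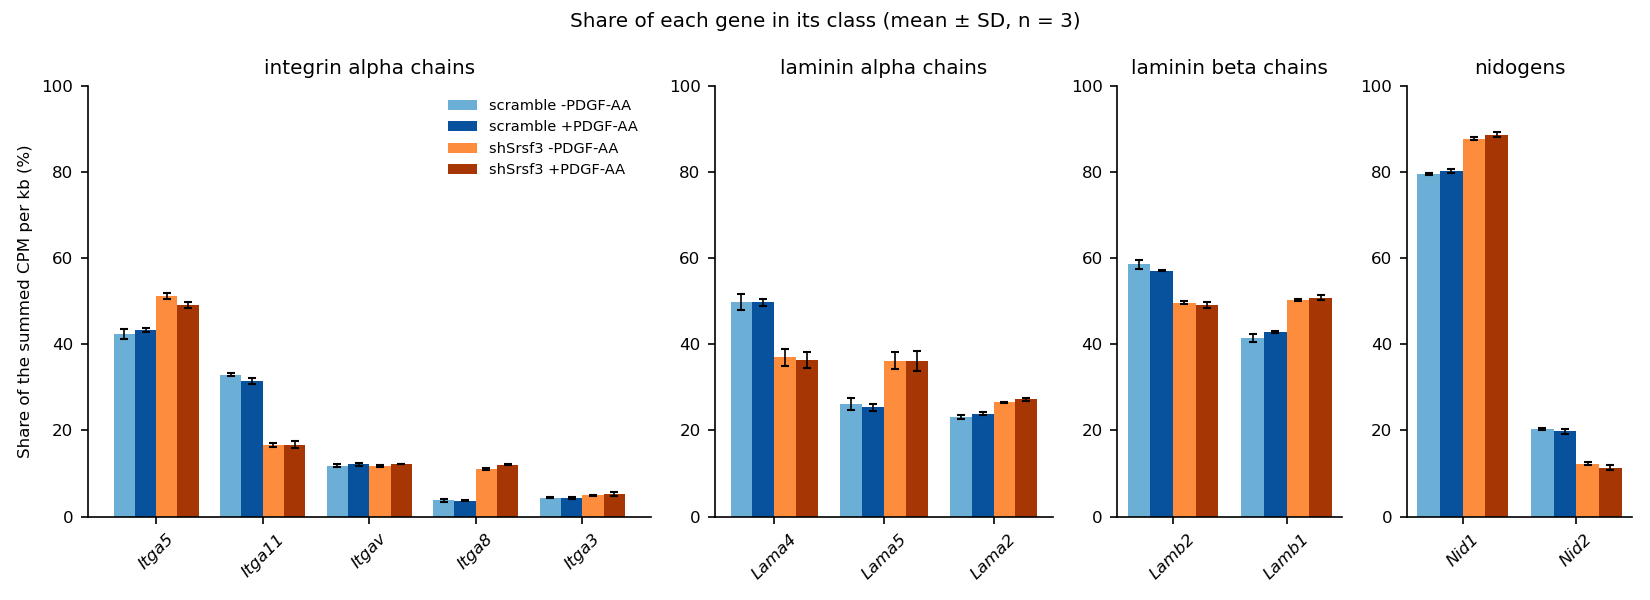
Share of each gene in the summed level per kilobase of its class (vertical axis, percent, starting at 0), for the most abundant integrin alpha subunits, laminin alpha chains, laminin beta chains and nidogens. Bars are group means and error bars SD (n = 3), with the 4 groups in the order scramble -PDGF-AA, scramble +PDGF-AA, shSrsf3 -PDGF-AA and shSrsf3 +PDGF-AA. Lama4 lies at 49.8% and 49.7% in scramble and 36.9% and 36.4% in shSrsf3 cells.

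To examine the effect of PDGF-AA on these genes at 1 hr, -PDGF-AA and +PDGF-AA samples were compared within each line. PDGF-AA is the ligand of PDGFRα, a receptor tyrosine kinase of the palatal mesenchyme. In scramble cells 1 of the 36 genes was past the test, against 4.04% of all tested genes, and in shSrsf3 cells 1, against 0.565%. With edgeR and with DESeq2, 0 were DE in either line. In both lines the gene was Itgb3, and it fell. The 3 scramble samples with ligand, at 32.7 to 36.3 CPM, were all under those without, at 38.1 to 40.8 CPM. In shSrsf3 cells the samples with ligand, at 21.8 to 22.4 CPM, were under those without, at 26.5 to 28.0 CPM. Itgb3 fell by 0.22 (SE 0.045, adjusted p = 0.0152) in scramble cells and by 0.29 (SE 0.048, adjusted p = 0.0117) in shSrsf3 cells, which is 1.16-fold and 1.23-fold. The direction was the same without any 1 library, but the call was lost without scramble +PDGF-AA replicate 1 (adjusted p = 0.0812) or replicate 3 (adjusted p = 0.0938), and in shSrsf3 cells without any 1 of its 6 libraries (adjusted p = 0.0510 to 0.0759).

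The other genes had smaller or less certain differences upon ligand stimulation. Itgb8 had log2 fold changes of -0.19 (adjusted p = 0.170) in scramble and -0.33 (adjusted p = 0.0893) in shSrsf3 cells, and its samples with ligand were under those without in both lines. Lama1 had 0.36 (SE 0.172, adjusted p = 0.301) in scramble and -0.25 (SE 0.237, adjusted p = 0.834) in shSrsf3 cells. Lamb1 had 0.10 in scramble cells (adjusted p = 0.258) and was past the test without scramble -PDGF-AA replicate 3 (0.17, adjusted p = 0.0190). In scramble cells 8 of the 36 genes had an unadjusted p under 0.05, 6 of them higher, and in shSrsf3 cells 7, 4 of them higher. The share of all tested genes under that unadjusted cut was not counted, here or for the interaction below. Such counts are therefore a description and no result about the family. The median log2 fold change was 0.06 in scramble and 0.05 in shSrsf3 cells, beside -0.01 and 0.00 over all tested genes. Whether the change upon ligand differed between the lines was tested by the interaction, for which 0.0133% of all tested genes were past the test. Of the 36 genes 0 were past it with edgeR and 0 with DESeq2, with 1 at an unadjusted p under 0.05 in each, and the smallest adjusted p with edgeR was 0.874. For Itgb3 the interaction was -0.08 (SE 0.066, adjusted p = 0.882).

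**Figure D4:**
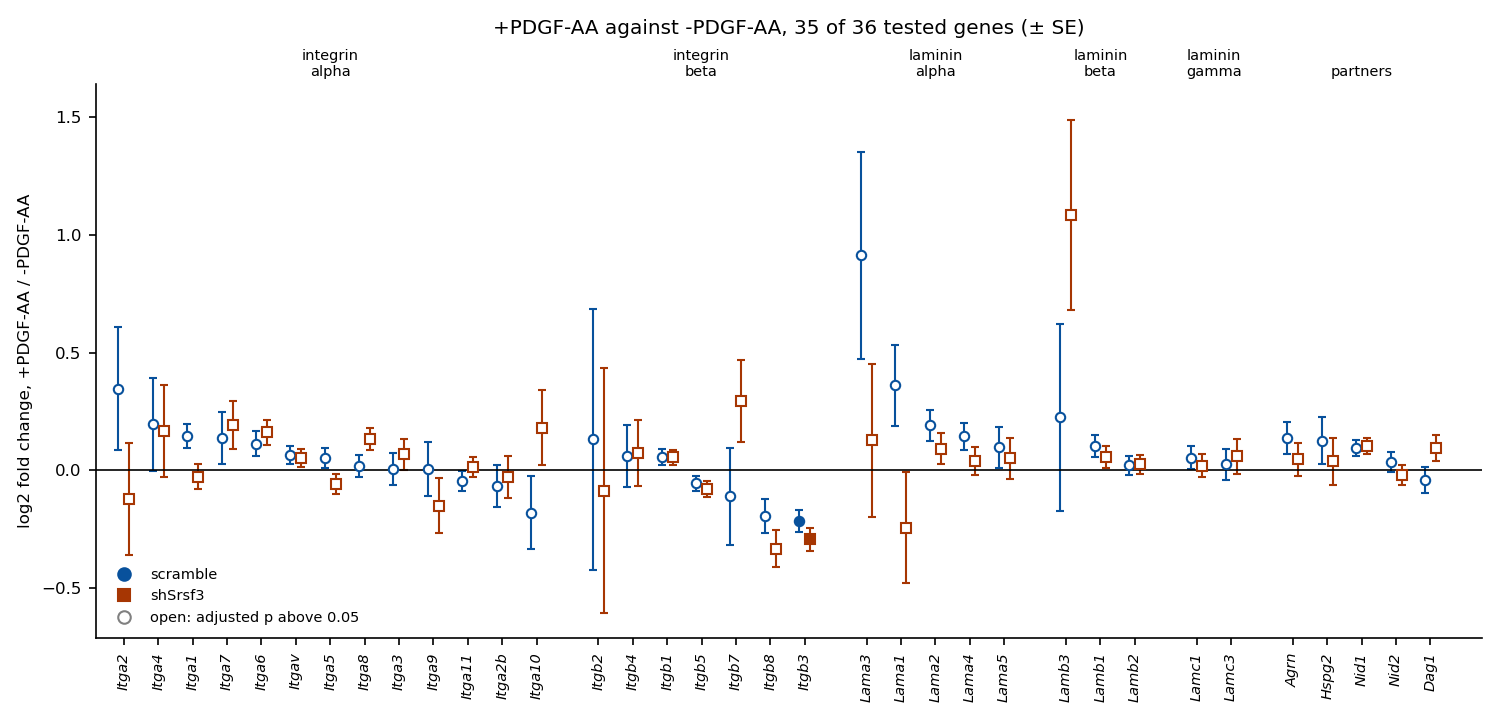
Log2 fold change between +PDGF-AA and -PDGF-AA samples (vertical axis, bars are SE) for 35 of the 36 tested genes in scramble cells (blue circles) and shSrsf3 cells (brown squares), grouped by class. Filled symbols have an adjusted p of 0.05 or less, which holds for Itgb3 in both lines, at -0.22 and -0.29; the widest bars belong to Itgb2, Lama3 and Lamb3, the genes of lowest count.

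Lists of genes that work with these proteins were then counted in the same fits. Adhesion adaptors, which tie the cytoplasmic tails of integrins to actin, had 14 of 23 tested genes past the test without ligand, 9 higher and 5 lower, and 13 with ligand, 6 higher and 7 lower. For this and the lists that follow, the shares over all tested genes were 22.2% higher and 23.7% lower without ligand and 20.3% and 20.7% with ligand. The median log2 fold change of the list was 0.07 and -0.01. Parvb, a parvin that binds integrin-linked kinase, rose by 2.56 (SE 0.136, adjusted p = 6.86e-09) and 2.59 (SE 0.134, adjusted p = 5.60e-09), from 0.913 ± 0.153 to 5.42 ± 0.132 CPM and from 0.949 ± 0.160 to 5.69 ± 0.292 CPM. It was the one DE gene of the list in each condition, against 5.75% of all tested genes without and 5.42% with ligand. The tensin Tns2 rose by 0.50 and 0.73 (adjusted p = 1.24e-06 and 3.99e-08), and Cib1, which binds the tail of the platelet alpha subunit, fell by 0.61 and 0.51 (adjusted p = 0.000129 and 0.000807).

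Of 15 tested matrix ligands of integrins, 4 were higher and 6 lower without ligand, and 2 higher and 8 lower with ligand, with medians of -0.03 and -0.20. Postn, periostin, fell by 0.87 and 0.94 (adjusted p = 8.11e-09 and 4.19e-09), from 2996 ± 178 to 1634 ± 25.1 CPM without ligand. Npnt, nephronectin and a ligand of the integrin that contains Itga8, fell by 0.72 and 0.56 (adjusted p = 7.44e-07 and 1.09e-05), from 53.3 ± 4.48 to 32.3 ± 0.816 CPM and from 50.3 ± 2.15 to 34.2 ± 2.39 CPM. Spp1, osteopontin, rose by 0.81 and 0.87 (adjusted p = 5.34e-05 and 3.02e-05), from 4.72 ± 0.815 to 8.35 ± 0.227 CPM without ligand. Itga8 thus moved in the opposite direction to Npnt and in the same direction as Spp1.

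Of the 11 tested genes of the dystrophin-glycoprotein complex, which anchors dystroglycan to actin, 7 were higher and 2 lower without ligand, and 6 higher and 2 lower with ligand (medians 0.22 and 0.25). Dmd, dystrophin, rose by 0.72 and 0.53 (adjusted p = 0.000179 and 0.00220), while the sarcoglycan Sgcb fell by 0.62 and 0.47 (adjusted p = 1.92e-06 and 3.28e-05) and the syntrophin Sntb1 by 0.53 and 0.46 (adjusted p = 0.00344 and 0.0113). Of 16 tested enzymes that build the laminin-binding sugar of dystroglycan, 4 were higher and 4 lower without ligand, and 3 higher and 2 lower with ligand (medians -0.01 and 0.01), shares near or under those over all tested genes. The mannosyltransferase Pomt1 rose by 0.43 and 0.42 (adjusted p = 1.10e-05 and 1.68e-05), Pomgnt1 by 0.30 and 0.25 (adjusted p = 0.000204 and 0.00104), and the kinase Pomk fell by 0.26 in both (adjusted p = 0.00101 and 0.00133).

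Other basement membrane genes held the greatest differences of the lists. Of 17 tested, 7 were higher and 8 lower without ligand, and 7 higher and 6 lower with ligand (medians -0.06 and -0.02). In each condition 3 were DE, against 5.75% of all tested genes without and 5.42% with ligand. Col4a6 rose by 4.00 (SE 0.122, adjusted p = 4.61e-11) and 3.77 (SE 0.115, adjusted p = 4.58e-11) and Col4a5 by 1.07 and 1.12 (adjusted p = 1.29e-09 and 1.06e-09), from 0.590 ± 0.113 to 9.55 ± 0.423 CPM and from 91.4 ± 3.21 to 193 ± 8.01 CPM without ligand. Col4a1 and Col4a2, the common collagen IV chains, had 1549.8 ± 31.3 and 1509.7 ± 76.8 CPM and 1586 ± 67.7 and 1462 ± 83.5 CPM without ligand, with log2 fold changes of -0.04 (adjusted p = 0.424) and -0.12 (adjusted p = 0.0329). Frem1, a protein of the membrane under embryonic epithelium, fell by 1.57 and 1.77 (adjusted p = 0.000171 and 0.000107) at levels of 0.446 to 1.55 mean CPM. Upon PDGF-AA in scramble cells, 1 of 15 matrix ligands, 1 of 11 dystrophin complex genes and 1 of 16 glycosylation enzymes were past the test. Of the 23 adaptors and the 17 other basement membrane genes 0 were, and of all tested genes 4.04%. The 3 genes were Thbs1 at 0.26 (adjusted p = 0.00939), Utrn at 0.26 (adjusted p = 0.0458) and Gmppb at 0.23 (adjusted p = 0.0118). In shSrsf3 cells 1 of the 23 adaptors was past the test, Lims2 at -0.34 (adjusted p = 0.0111). The other 4 lists had 0, and 0.565% of all tested genes were past the test. So few genes are a description and no result about the lists.

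**Figure D5:**
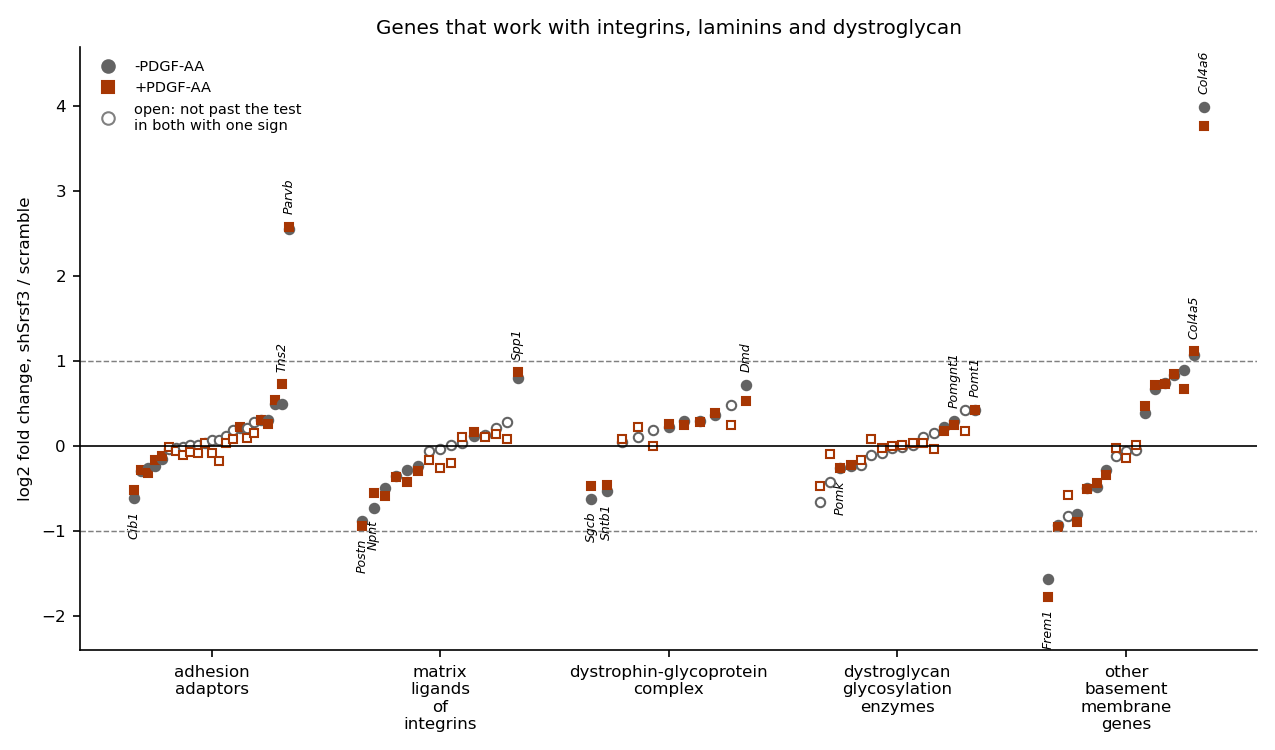
Log2 fold change between shSrsf3 and scramble samples (vertical axis) without ligand (grey circles) and with ligand (brown squares) for the tested genes of the 5 lists, in order of the value without ligand. Filled symbols are past the test in both conditions with the same sign, dashed lines mark 2-fold, and names are given for the 3 genes per list with the greatest change among these; Col4a6, at 4.00 and 3.77, and Parvb, at 2.56 and 2.59, lie farthest above 0.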

How the data were processed

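The authors made 12 libraries with a stranded mRNA kit, trimmed reads with BBDuk, used Salmon (v1.4.0) with the GENCODE M26 transcripts of GRCm39, and summed transcripts to genes with tximport; the deposited genes are named by symbol. The deposited values are expected counts, not scaled to library size. How tximport scaled them, and whether Salmon used strand, is not given in the sources used here.

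Expected counts were rounded, filtered with filterByExpr (minimum count 10) and normalized by TMM in edgeR 4.0.16 (R 4.3.3). The quasi-likelihood test was applied to 15037 genes in 1 model with 4 group means and all 12 samples, and p values were adjusted by Benjamini-Hochberg over all of them. SE was derived from the log2 fold change and its F statistic. DESeq2 1.42.0, other size factors, no filter, a replicate block and left-out samples were alternatives. The fit was tested on simulated data. Starts, exons, upstream sequences and 31-base sequences shared between genes came from GENCODE M39 and the GRCm39 genome, a later annotation of the same build.

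The genes and lists were chosen with earlier results of these data known. Values in every sample were given for genes DE in a knockdown comparison, past the test upon ligand, or common (Itgb1, Lamb1, Lamc1, Dag1). From each list the 3 genes that changed most, past the test in both knockdown comparisons, and 4 collagen IV genes were named. Itga11, Lama5 and Nid1 in every sample, and list genes past the test upon ligand, were added after their values were seen. Replicates are independent samples of 1 line per shRNA. Values of 1 gene are not reported here, although it is included in the counts.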

Additional observations from a re-analysis of the deposited data

How the results depend on the processing

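In the knockdown comparisons, 24 to 26 genes were past the test without ligand and 24 to 27 with ligand when any 1 library was left out, and 5 to 6 and 4 to 5 were DE. Upon PDGF-AA in scramble cells, the count of 1 became 5 with no filter on low counts, 2 without the 3 libraries of low mapping rate, and 0 to 5 when 1 library was left out. In shSrsf3 cells it became 0 to 1. Leaving out the 3 libraries leaves 1 scramble sample without ligand, assumed to vary like the other groups, so the values in scramble cells rest on that library. Samples with the same replicate number did not deviate together (2 of 18 correlations over 0.1, from -0.14 to 0.20; 0 samples correlated best with their own number in every other group). With the replicate number as a block, 25 genes were past the test in each knockdown comparison, 6 and 5 were DE, 1 was past the test upon ligand in each line and 0 for the interaction, and no count moved by over 1.5 times. Of 780 log2 fold changes of 11 named genes and Srsf3 under the alternatives, 753 kept their sign and side of the threshold, 10 lost the call, 5 gained it and 12 changed sign, none of which was past the test. Upon PDGF-AA in scramble cells, leaving out 1 library gave -0.0144 to 0.0739 for Itga8, -0.347 to 0.0805 for Itgb7 and -0.0952 to 0.00449 for Dag1, and leaving out the 3 libraries of low mapping rate gave -0.0357 for Itga7, -0.0358 for Itga8 and 0.0548 for Dag1. In shSrsf3 cells, leaving out 1 library gave -0.113 to 0.352 for Lama3 and -0.0195 to 0.0787 for Lamc1. Without the 3 libraries, Dag1 had 0.0673 in the knockdown comparison without ligand. The cause was not tested. DESeq2 gave no adjusted p for 3 genes upon ligand. Depth limits Lama3, Itgb2 and Lamb3, with 2 to 35 counts per sample.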
